A study of Mus musculus with 4 samples.

Results

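The regions described here are IMP2 clusters, sites where tags from crosslinking immunoprecipitation piled up, that lie in 3' UTRs annotated at under 1500 bases. They were taken from a deposited list of 1828 clusters in 761 genes, of which 1721 clusters in 729 genes were placed in a 3' UTR. The length of a 3' UTR was that of the longest interval listed for the cluster, and 439 clusters in 264 genes met the limit. Another 1282 clusters in 465 genes lay in 3' UTRs of 1500 bases or more, and no gene had clusters in both classes. The choice used annotated length alone and no measured value.

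HITS-CLIP, in which ultraviolet light joins a protein to the RNA it touches before the protein is pulled down, was applied to whole brain of Swiss Webster mouse embryos at E14. All 4 libraries were made with antibodies to IMP2, with benzonase as the nuclease; 2 carry R and 2 carry M in their titles, and the labels do not explain these letters. The protocol names 1 antibody raised in mouse and 1 raised in rabbit. A single list stands for the 4 libraries, so no value below has a replicate error, no condition was compared, and the depth behind each value is unknown. Side-by-side values for short and longer 3' UTRs are therefore descriptions without a test. Intervals are exact 95% binomial intervals over clusters or genes, cover counting error only, and treat neighbours on the same transcript as if they were separate. In whole brain, a cell type that is rare and a transcript that is scarce in each cell cannot be told apart.

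IMP2, encoded by Igf2bp2, belongs to the IGF2BP family, proteins that bind mRNA through RRM and KH domains and are known for influencing its stability, translation and transport. The 3' UTR is the stretch between the coding sequence and the poly(A) tail, and it carries many of the sites through which such proteins and microRNAs act. Neurons are known for unusually long 3' UTRs on many transcripts, and the short ones form another setting, in which a cluster of a given width takes up a larger part of the region.

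Short 3' UTRs carried clusters of like height and width to longer ones, and the clusters took up a larger part of them. The median height, a signal value deposited by the authors, was 30 for the 439 clusters (95% interval 29 to 31, range 18 to 107) and 30 for the other 1282 (29 to 31, range 18 to 106). The median width was 54 bases (51 to 58, range 27 to 418) against 55 (53 to 57, range 27 to 588). The median of the deposited fold of the height, whose reference level is not defined in the header, was 5.50 against 5.44. Of the short 3' UTR clusters, 214 (48.7%, 44.0 to 53.5) were taller than 30, beside 48.0% of all 3' UTR clusters, so the share lay at the background. Height and width rose together to a like degree in both classes (Spearman's rho 0.51 over 439 clusters and 0.53 over 1282), with heights and widths drawn from the same tags.

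Within the short class, height hardly followed length (Spearman's rho -0.10 over 439 clusters). The median height was 29 in 3' UTRs under 500 bases (45 clusters in 41 genes), 31 from 500 up to 1000 bases (182 in 111) and 29.5 from 1000 up to 1500 bases (212 in 113; 1 gene has intervals in more than 1 of these bins). Clusters above a height of 60 numbered 1, 18 and 7 in these bins. They made up 5.92% of short 3' UTR clusters (26 of 439) and 4.84% of the rest (62 of 1282), and the 20 tallest 3' UTR clusters of the list included 7 short ones (35%), the 100 tallest 28 (28%), and all 1721 held 439 (25.51%).

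**Figure D1:**
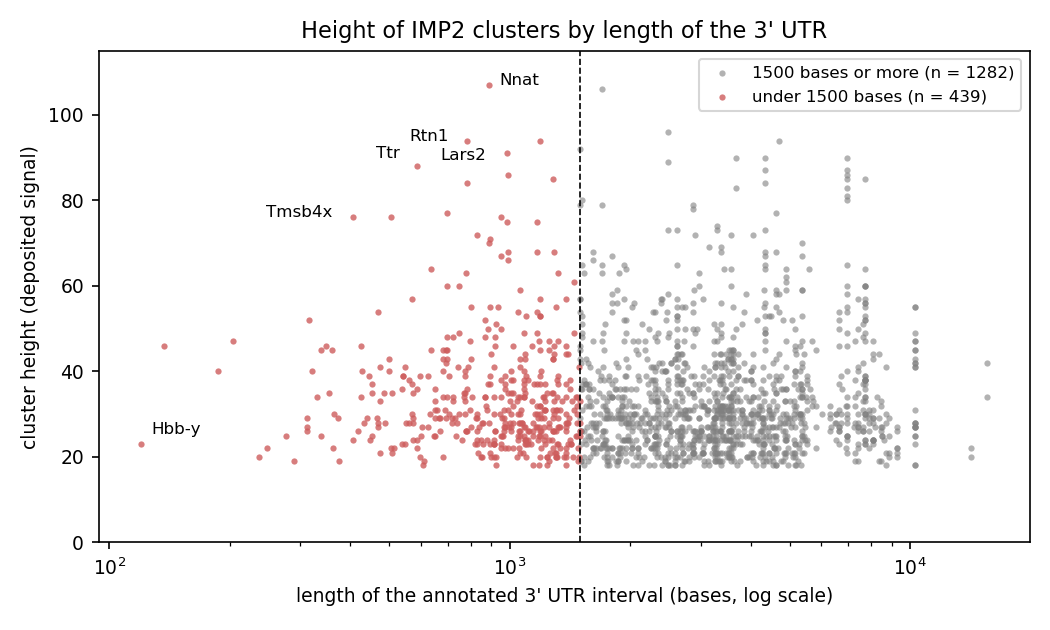
Height of each 3' UTR cluster (deposited signal) against the length of its annotated 3' UTR on a log axis; red points are the 439 clusters under 1500 bases, grey points the other 1282, and the dashed line marks the limit. The floor at 18 and the bulk around 30 run level across lengths, while Nnat at 107 tops both classes.

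The 12 genes with the tallest clusters differed in what they encode. Nnat, encoding the small membrane protein neuronatin, had 3 clusters of heights 28, 107 and 70 in a 3' UTR of 885 bases, in order from the stop codon, the tallest at chr2:157387626-157387779 (mm9, plus strand). Pgrmc1, a haem-binding membrane protein gene, had 6 with heights of 37, 32, 53, 57, 94 and 45 in 1188 bases. Rtn1, a reticulon gene of the endoplasmic reticulum in neurons, had 3 with heights of 36, 84 and 94 in 783 bases. In these 3 genes the tallest cluster stood beside others rather than alone, and Nnat and Rtn1 each had another above 60. Ctnnb1, encoding beta-catenin of adherens junctions and Wnt signalling, likewise had 6 clusters of 86, 35, 31, 66, 22 and 68 in 990 bases, so that 3 of them passed a height of 60. Ywhae, encoding the 14-3-3 protein epsilon, had heights of 37, 54, 49, 68 and 75 from the stop codon onward, the last at chr11:75578857-75579061 (plus strand).

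Cytoskeletal genes were among these 12 as well. Ina, the neuronal intermediate filament gene alpha-internexin, had clusters of 60, 43 and 77 in 696 bases. Basp1, encoding a membrane-bound growth cone protein, had 5 clusters of 50, 67, 76, 38 and 25 in 952 bases. Tmsb4x, encoding the actin-sequestering peptide thymosin beta 4, had 76 and 24 in only 407 bases. The microtubule-destabilising stathmin gene Stmn2 differed from these in having 1 tall, narrow cluster, 85 high and 57 bases wide at chr3:8561297-8561353 (plus strand), among 4 of 22 to 43.

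A few tall clusters were narrow and stood on otherwise bare 3' UTRs. Lars2, the mitochondrial leucyl-tRNA synthetase gene, had clusters of 91 and 75 that were 50 and 47 bases wide, with folds of 17.7 and 14.1, and together they covered 9.84% of its 986 bases. Hsp90aa1, encoding the inducible form of the chaperone HSP90, had a single cluster of 76, 46 bases wide, at chr12:111929513-111929558 (minus strand) in 504 bases. The median width of the 26 clusters above 60 was 167 bases, against 54 for all 439, so these 3 were narrow for their height. Ttr, encoding the thyroid hormone carrier of the choroid plexus, differed from these, with heights of 88 and 36 in 588 bases and 36.7% covered. Its taller cluster was 242 bases wide and began 96 bases upstream of the 3' UTR interval.

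Clusters covered a median of 9.12% of a short 3' UTR per gene (95% interval 7.30 to 10.2, range 2.08 to 78.4, 264 genes) and 2.94% of a longer one (2.68 to 3.29, range 0.337 to 75.1, 465 genes). Counted in bases the order was the other way: a median of 61.5 bases was covered in a short and 85 in a longer 3' UTR. Summed over genes, clusters covered 30224 of 240161 bases (12.6%) and 91021 of 1575795 (5.78%). A listed gene has at least 1 cluster by construction, so the share in a short 3' UTR cannot fall below the width of that cluster over the length. Genes without any cluster are not in the list, and the numbers say nothing of short 3' UTRs at large.

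At least 50% of the 3' UTR lay under clusters in 13 short genes (4.92%, 2.65 to 8.27), beside 2.33% of all genes with a 3' UTR cluster, and in 4 longer ones (0.860%, 0.235 to 2.19). The top heights of these 13 genes ran from 35 to 107 with a median of 75, against a median of 31 over the 264 genes. Rtn1 was covered to 78.4%: its later clusters were 191 and 289 bases wide, lay 2 bases apart, and left 6 bases free before the 3' end. Ctnnb1 followed with 78.2%, its first cluster alone taking 341 of 990 bases. Basp1 reached 70.7%, Mest 67.5%, Tmsb4x 63.6% and Tubb5 63.5%.

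Mest, an imprinted gene for a hydrolase-like protein of mesoderm, had the widest cluster of the class. It spanned 418 bases at chr6:30697071-30697488 (plus strand) with a height of 68. The next, 87 bases wide and 44 high, lay 2 bases before another wide one of 312 bases and height 46. Ptms, encoding the small acidic nuclear protein parathymosin, was covered to 60.7% by clusters of only moderate height, 35 and 21, that were 164 and 144 bases wide. Sptbn1, the beta-spectrin gene of the membrane skeleton (Spnb2 in the list), was covered to 57.8% by 5 clusters of 20 to 53, among them 1 of 306 bases. Cpe, encoding the prohormone-processing carboxypeptidase E, reached 56.2% with 3 clusters of 37, 30 and 57. Maged1, a MAGE family gene, was covered to 54.9% by a single cluster, 112 bases wide and 47 high, that began directly after the stop codon in a 3' UTR of 204 bases. High coverage was thus reached in different ways, by wide neighbouring clusters in Rtn1 and Mest, by many in Tubb5 and by 1 in Maged1.

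**Figure D2:**
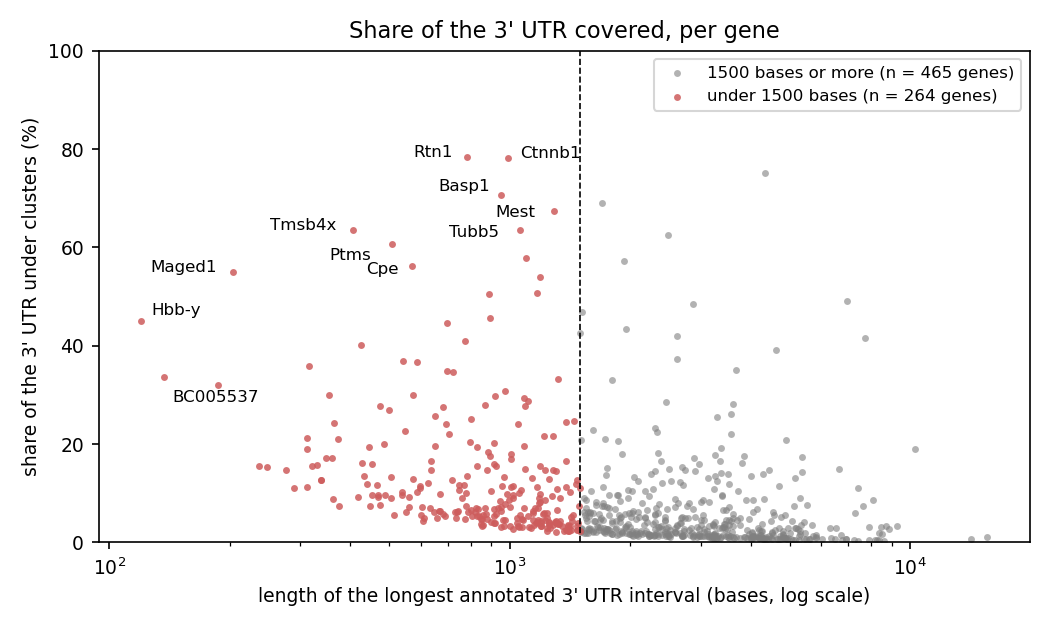
Share of the 3' UTR under clusters (%) for each gene against the length of its longest interval on a log axis; red points are the 264 short genes, grey points the other 465, and the dashed line marks 1500 bases. The lower edge falls with length because each gene has at least 1 cluster, and Rtn1 and Ctnnb1 lie highest at 78.4% and 78.2%.

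Most short 3' UTRs had a single cluster. This held for 174 of the 264 genes (65.9%, 59.8 to 71.6), and 90 (34.1%) had at least 2, beside 45.0% of all genes with a 3' UTR cluster and 51.2% of those with longer 3' UTRs. Per kilobase of annotated 3' UTR the order was the other way, with 1.83 clusters in the short and 0.814 in the longer class. Genes with at least 4 clusters numbered 19 (7.20%) and held 21.6% of the short class's clusters, whereas 99 genes (21.3%) held 57.4% of the longer class's.

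Tubb5, the beta-tubulin gene of proliferating and immature cells, had the most, with 8 clusters in 1062 bases. Their heights were 41, 43, 59, 21, 30, 28, 26 and 34 from the stop codon onward, so none was tall, and the closest neighbours lay 3 bases apart. Pgrmc1, Ctnnb1, Mest, Pfn2 and Serinc1 had 6 each. Pfn2, encoding the neuronal actin-monomer binder profilin 2, had heights of 37, 39, 27, 63, 29 and 23 over 1322 bases, and Serinc1, a serine incorporator membrane protein gene, 18, 30, 46, 44, 22 and 57 over 1381 bases. The highest of Serinc1 was its last, ending 12 bases before the 3' end, while that of Pfn2 lay in the middle. Stmn2 and Basp1, with 5 each, close the group of 8. Among the 175 pairs of neighbouring clusters in the 90 genes with several, the median gap was 81 bases, and 62 pairs were at most 50 bases apart, 17 of them at most 10. When clusters at most 50 bases apart were joined, the class held 377 clusters.

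**Figure D3:**
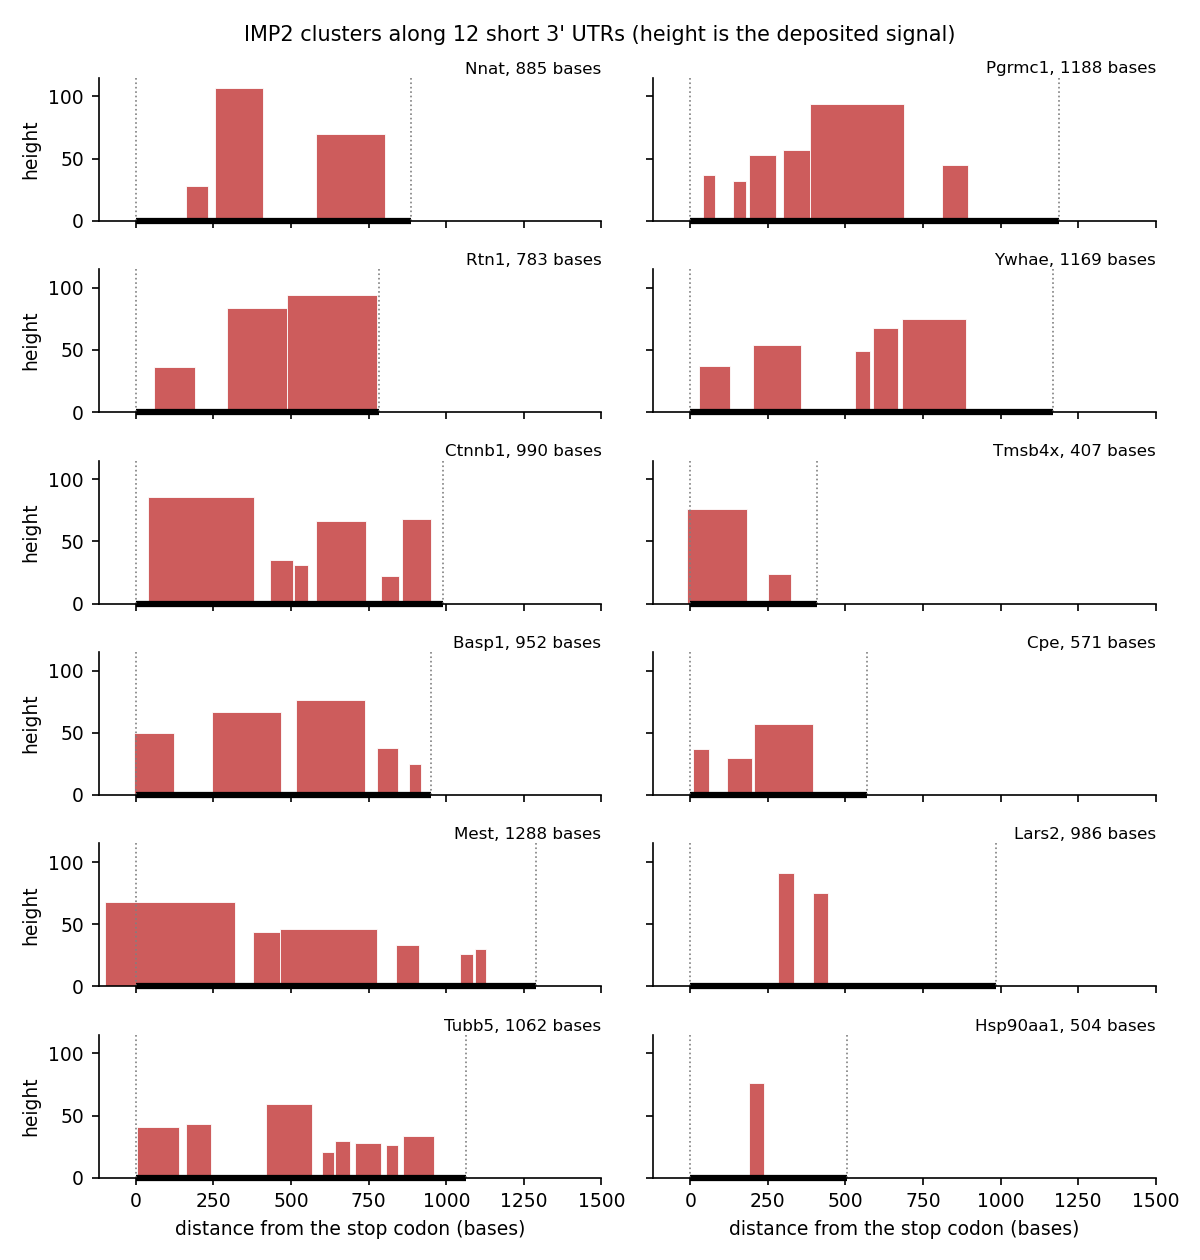
Clusters along 12 short 3' UTRs: the horizontal axis is the distance from the stop codon in bases, the black bar is the annotated interval, and each red block is a cluster drawn at its width with its deposited height. Rtn1, Ctnnb1 and Basp1 are the most filled, at 78.4%, 78.2% and 70.7%, while the single cluster of Hsp90aa1 and the pair of Lars2 are tall and narrow.

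Clusters were spread along the whole short 3' UTR. Counted from the stop codon, the median midpoint lay at 48.8% of the length (95% interval 45.3 to 53.3), against 48.0% (45.4 to 50.7) in longer 3' UTRs. Of 10 equal parts, the first and the last held the fewest clusters, 25 (5.69%) and 26 (5.92%), beside 9.13% and 8.35% in longer ones. A cluster that lies inside its 3' UTR cannot have its midpoint at the very end, and the stretch closed off in this way is a larger part of a short region. Whether this accounts for the low outer parts was not tested. Measured as the place of the cluster within the room its width leaves, a scale added after the data were seen, the outer parts held 40 (9.11%) and 39 (8.88%), beside 10.3% and 9.05% in longer 3' UTRs. This scale puts a cluster that begins upstream of its interval at the very start. The first part therefore includes all 7 such clusters of the short class, and all 7 of the longer one.

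Some clusters lay at the very ends of short 3' UTRs. The start of a cluster was at most 50 bases from the stop codon in 33 cases (7.52%), and the far edge was at most 50 bases from the 3' end in 28 (6.38%). In longer 3' UTRs these shares were 1.72% and 1.48%, a fixed number of bases being a smaller part of them. No cluster of the class ran past the annotated 3' end, the nearest edge, in Rtn1, lying 6 bases inside it. By contrast, 7 clusters (1.59%) began upstream of the interval on its stop codon side: those of Mest by 99 bases, Ttr by 96, Sptan1 (Spna2 in the list) by 16, the RNA helicase gene Dhx15 by 10, Tmsb4x by 9, Basp1 by 6 and the phosphatase gene Ppp2ca by 2. These 7 genes are named because they are all of the kind among the clusters placed in a short 3' UTR. Stmn2 and Atp2a2 each had a cluster placed in coding sequence that also reached into the short interval, and these are not counted here. Of the clusters placed in longer 3' UTRs, 7 of 1282 (0.546%) began upstream of the interval.

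**Figure D4:**
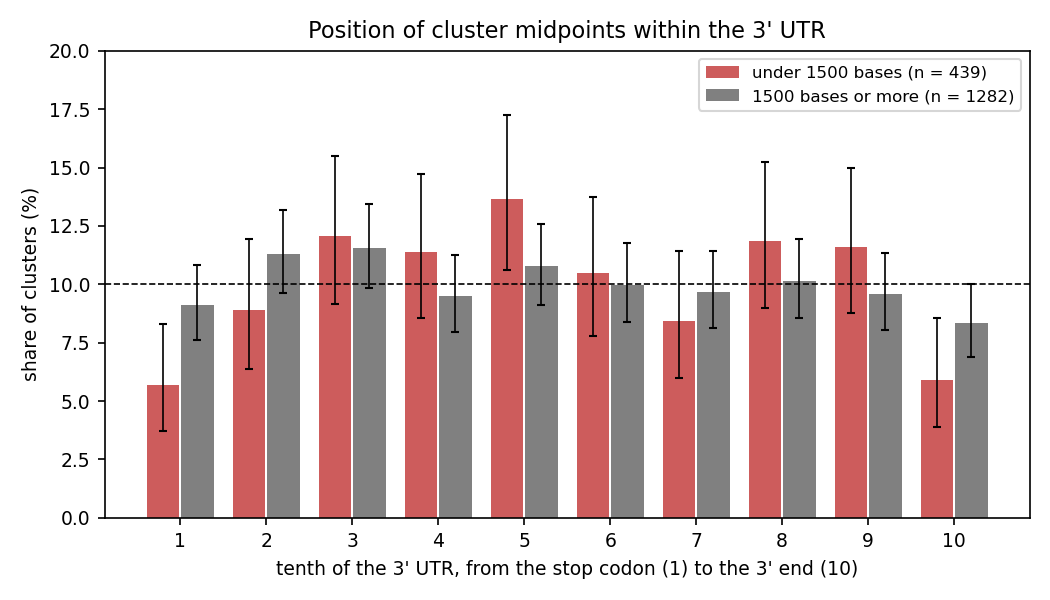
Share of clusters (%) whose midpoint lies in each of 10 equal parts of the 3' UTR, numbered from the stop codon; red bars are the 439 clusters in short 3' UTRs, grey bars the other 1282, error bars are exact 95% binomial intervals and the dashed line is an even split. The outer parts of short 3' UTRs are the lowest, at 5.69% and 5.92%.

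The shortest 3' UTRs had 1 cluster each that filled a sizeable part of them. Hbb-y, the embryonic beta-like globin gene of primitive red cells, had a 3' UTR of 120 bases, 45.0% of it under a cluster of height 23 at chr7:111000303-111000356 (minus strand). BC005537 had 137 bases and a cluster of 46 that covered 33.6%. Tuba1a, the main alpha-tubulin gene of newborn neurons, had 187 bases and a cluster of 40 at chr15:98780377-98780436 (minus strand) that covered 32.1%. All 3 fell between the floor of 18 and a height of 60. Maged1, with 204 bases, came next. Col1a1, encoding type I collagen, had 237 bases and a cluster of 20, and Cct2, a subunit gene of the tubulin- and actin-folding chaperonin, had 248 bases and a cluster of 22, which covered 15.6% and 15.3%.

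The narrowest clusters of the class were low, and the highest folds came with heights well below the tallest. Clusters of 27 bases were found in Dek, a chromatin protein gene (height 20), Rgs5, a regulator of G protein signalling known as a pericyte marker (18), and Adk, encoding adenosine kinase (18), and 1 of 28 bases in Nipsnap1, a mitochondrial protein gene (22), a width shared by lower clusters of other genes. The highest folds were those of Rgs5 (23.1), Col1a1 (20), the matrix proteoglycan gene Bgn (19.2) and Col3a1, encoding type III collagen (18.6). Their heights were 47, 20, 28 and 29, so the highest folds were not those of the tallest clusters, although fold and height rose together over all 439 (Spearman's rho 0.59). Height divided by fold was 2.04, 1.00, 1.46 and 1.56 in these, against a median of 5.97 over the 439 clusters.

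Among gene lists, that of actin and its regulators lay mostly in short 3' UTRs and that of microtubule regulators mostly in longer ones. Over all 729 genes with a 3' UTR cluster, 36.2% were in the short class, and 14 of 17 actin genes were (82.4%). Basp1 (top height 76), Tmsb4x (76), Pfn2 (63) and Marcksl1 (60), a MARCKS-like protein gene that links actin to the membrane, led them. The median top height of the 14 was 37 against 31 over the 264 genes. Actb, encoding beta-actin, had an evenly tall row of 4 clusters, 43, 34, 45 and 40, over 682 bases. The cofilin gene Cfl1 had 1 of 36, and the growth cone protein gene Gap43 had 1 of 27. Of the 13 microtubule regulators with a 3' UTR cluster, 2 were short (15.4%), Stmn2 (85) and the collapsin response mediator gene Crmp1 (20). Both tubulin genes with a 3' UTR cluster were short, Tubb5 and Tuba1a. These shares were not tested, and the lists were drawn up with earlier results of these data known. The actin and microtubule lists hold 28 genes each, so their shares describe these lists and not actin or microtubule genes at large. The short genes Macf1, Dst and Atat1 are not on the microtubule list. The actin list leaves out the short gene Fscn1 and some or all of the longer genes Actr2, Cfl2, Rdx and Tmod2.

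Lists of nuclear proteins differed in share. Of 8 cell cycle and histone genes with a 3' UTR cluster, 6 were short (75%): H3f3b, encoding the replacement histone H3.3 (61), H2az1, a histone variant gene (H2afz in the list, 41), Hmgn1, a nucleosome-binding protein gene (41), Anp32a (32), the topoisomerase gene Top2a (29) and Macroh2a1, another histone variant gene (H2afy in the list, 27). H3f3b had 3 clusters in 1446 bases and the others 1 or 2. The cluster of H2az1 was 36 bases wide with a fold of 15.2. Transcription factors of neural development were short in 6 of 15 (40.0%), among them Zic1 (37), Bcl11a (35) and Lhx2 (25). Genes of RNA-binding and splicing proteins were short in 8 of 22 (36.4%), at the background share, with Hnrnpab (55), Nono (52), Pcbp1 (46) and Hnrnpl (45) highest. Pcbp1 and Hnrnpl had 3' UTRs of 348 and 360 bases with 1 cluster each.

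Genes of protein synthesis and quality control were low in number. Each share below rests on 3 short genes, and its distance from the 36.2% of all genes was not tested. The translation factor genes were Eef2 (40), Eif3a (27) and Eif4ebp2 (21), 3 of 5 (60%). The chaperone genes were Hsp90aa1 (76), the calcium-binding lectin gene Calr of the endoplasmic reticulum (38) and Cct2 (22), 3 of 6 (50%). From the ubiquitin system came the cullin gene Cul3 (45), the ubiquitin-activating enzyme gene Uba1 (29) and Skp1 (Skp1a in the list, 27), 3 of 7 (42.9%). Each of these 9 genes had a single cluster in its 3' UTR. Atp5a1, a subunit gene of ATP synthase, was the single gene of 33 for the respiratory chain and ATP synthase (35). Of 50 cytosolic ribosomal protein genes, 0 had a 3' UTR cluster and 1 had a cluster elsewhere. The list gives no 3' UTR length for genes without a cluster, so the room these genes offer was not compared.

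Membrane and vesicle genes included the tallest ones. Of 15 secretory pathway and membrane protein genes, 5 were short (33.3%): Pgrmc1 and Rtn1 (94 each), the contact-site tether gene Vapa (64), the retrieval receptor gene Kdelr2 (31) and Itm2b (29). Their median top height was 64, against 31 over the 264 genes. The short genes of the synaptic and vesicle list were the membrane protein gene Nnat (107), Olfm1 (40), the adhesion gene Nlgn3 (36) and Rab3a (20), 4 of 8. Apart from Nnat, the tallest cluster of this list was the 40 of Olfm1. Of 8 ion pump genes, 4 were short, among them the calcium pump gene Atp2a2 (72), the sodium pump subunit gene Atp1b1 (38) and Atp6ap2 (24). Small GTPase genes were short in 4 of 11, Rhob (43), Cdc42 (29), Rac1 (25) and Rab2a (22), each with a single cluster and a median of 2.85% covered. Besides Ywhae, Calm2 (39) was the other of 2 in 7 for calmodulins and 14-3-3 proteins.

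**Figure D5:**
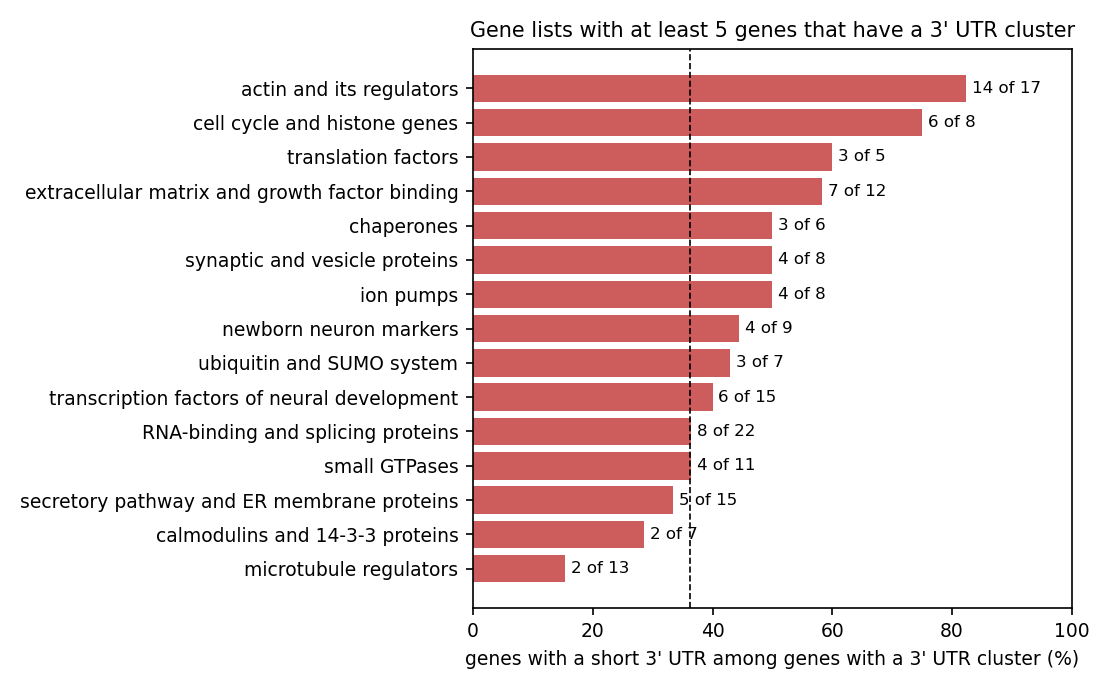
Share of genes with a short 3' UTR among the genes of each list that have a 3' UTR cluster (%), for lists with at least 5 such genes; numbers beside the bars are the counts and the dashed line is the 36.2% of all 729 genes. The actin list is highest with 14 of 17 and the microtubule regulators are lowest with 2 of 13.

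Matrix genes and markers of cells outside the neuronal lineage were present too. Of 12 matrix and growth factor genes with a 3' UTR cluster, 7 were short (58.3%), with Sparc (49, 5 clusters), Reln (46), Col4a2 (39, 4 clusters) and Col4a1 (34) highest. Sparc encodes a collagen-binding matrix protein, Reln the signal protein reelin, and the other pair the chains of basement-membrane collagen. Markers of newborn neurons were short in 4 of 9: Stmn2 (85), Ina (77), Gap43 (27) and the transcription factor gene Neurod6 (23). Of 9 neural progenitor markers, Vim (27) alone had a 3' UTR cluster. The meningeal and mesenchymal markers with a 3' UTR cluster, Zic1, Col3a1 and Col1a1 (3 of the 7 on their list), were all short. So were Ttr for the choroid plexus (1 of 5 on its list), Rgs5 for vessels (1 of 7) and Hbb-y for red cells (1 of 8). The other markers on these lists had no 3' UTR cluster. Zic1 is also counted above among transcription factors of neural development, so it does not mark cells outside the neuronal lineage alone. Col3a1 and Col1a1 are also in the matrix list. No microglia marker (0 of 6) and no glial marker (0 of 7) was listed. What share of the class such cells contribute was not tested.

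Some of the short genes also had clusters outside the 3' UTR. Clusters in coding sequence were found in 16 of the 264 genes (6.06%), beside 5.62% of all genes with a 3' UTR cluster. Clusters in a 5' UTR were found in 5 (1.89%, 0.618 to 4.36), beside 0.823% of all genes with a 3' UTR cluster. Of the genes with longer 3' UTRs, 1 of 465 had one (0.215%, 0.00544 to 1.19). The 5 genes were Tubb5 (height 27 in the 5' UTR), BC005537 (25 and 31), Tuba1a (19), Nnat (21) and Polr2m, which encodes a protein linked to RNA polymerase II (Grinl1a in the list, 30); the Polr2m cluster is listed as coding as well. Tubb5 had 4 coding clusters of up to 43, so clusters lay in every region of its transcript. The same held for BC005537, Tuba1a and Polr2m. The methyltransferase-like gene Kmt2e (Mll5 in the list) had 4 coding clusters of up to 47, taller than the 27 reached in its 3' UTR of 1182 bases. Eef2 had 41 in its coding sequence and 40 in its 3' UTR of 427 bases.

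Genes next to the limit of 1500 bases varied in height on both sides of it. Just inside lay Ddx5, an RNA helicase gene (1494 bases, 3 clusters, top height 33), Rac1 (1494 bases, 25) and the integrin gene Itgb1 (1491 bases, 2 clusters, 41). Just outside lay Cd24a, a surface glycoprotein gene (1500 bases, 10 clusters, 92), Rbbp6 (1502 bases, 23) and Ubl3 (1504 bases, 26). Cd24a, at the limit itself, was the tallest of the 6.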

How the data were processed

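Per the file headers, the single deposited list gives each cluster's height (a signal), a fold of that height (a ratio) and the RefSeq region it lies in. The submitters' processing notes name Bowtie, FastQC and mm9. Not given in the sources used here are the peak caller with its thresholds, the RefSeq release, how duplicate and multiply matching reads were treated, and any pooling of libraries. The lowest deposited height was 18 and the lowest fold 2. The 2699 lines placed in a 3' UTR were reduced to 1721 distinct clusters, with starts made 1-based. Current symbols came from a RefSeq table of GRCm38.p6 by accession (1088 of 1099 transcripts) or name (11). Covered bases are the union of clusters inside the union of a gene's intervals. For 2 lines the interval does not reach the transcript end. Medians carry exact order-statistic intervals and shares Clopper-Pearson intervals (95%, SciPy 1.17.1, pandas 2.3.3). The measures were tested on simulated data.

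Genes were named by a rule: 12 by top height, 8 by number of clusters, 10 by share covered, 6 by shortness, 4 by fold, the genes of the 4 widest and 4 narrowest clusters, those beside the limit, and up to 4 for each of 25 gene lists. Any other gene was named after its values were seen. Some genes that the rule picks are not reported here. The members, lists and rule were chosen with earlier results of these data known.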

Additional observations from a re-analysis of the deposited data

How the results depend on the processing

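The clusters and genes of the class numbered 439 and 264, the median height was 30, the median width 54 bases, the median share covered 9.12%, the median position 48.8%, the share taller than 30 was 48.7% and the density 1.83 clusters per kilobase. With a limit of 1000 bases there were 227 clusters in 151 genes, 11.3% covered, at 2.25 per kilobase, and with 2000 bases 7.04% covered at 1.56. With folds of at least 5, 259 clusters remained, with a median height of 36, a width of 59 bases, 66.8% taller than 30 and 1.54 per kilobase. With clusters taller than 30 alone there were 214 clusters in 138 genes, with a height of 39, a width of 69.5 bases and, by construction, 100% taller than 30. With the highest cluster of each gene there were 264 clusters, 6.25% covered and 1.11 per kilobase. These settings admit more or fewer clusters or genes by construction. The median position stayed between 46.3% and 49.6% in all settings, at 48.8% also in the room left by a cluster's width, a setting chosen after seeing the data. Taking the smallest interval and joining at 50 bases moved no median or share beyond its interval and no count by more than 1.5 times. Joining lowered the density from 1.83 to 1.57 clusters per kilobase, and no interval of the density is given here. The midpoint rule left all 8 values as they were, since every midpoint already lay inside its interval, so it could not test them. No cluster of the class was listed for a further region or gene. The settings for clusters of a single region or of a single gene thus removed nothing and could not test the values. No paired analysis was possible because the list has no column for a single library, and for the same reason no replicate was left out. Heights below 18 and folds below 2 are not listed, so weaker sites cannot be counted. Whether the annotated ends are those used in this tissue was not tested.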

Other observations

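Several gene families that no list covered had short 3' UTRs with clusters; they were picked after their values were seen and are given as values only. In the amyloid precursor family, App had 3 clusters of heights 55, 39 and 71 in 895 bases, covering 45.7%, the later pair 4 bases apart. Aplp2 had 3 of 20, 23 and 31 in 1314 bases, and Aplp1 had 1 of 26 in 311 bases. In Aplp1 and Aplp2 the last cluster ended 25 and 27 bases before the 3' end, whereas that of App ended 303 bases before it. Of the catalytic subunits of protein phosphatase 2A, Ppp2ca had 4 clusters of 33, 39, 40 and 30 covering 40.9% of 775 bases, while Ppp2cb had a single cluster of 19 in 610 bases. The spectrin genes Sptbn1 and Sptan1 were covered to 57.8% and 29.9%.

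Imprinted genes of the class included, besides Nnat and Mest, the MAGE family gene Ndn, with clusters of 39 and 39 that covered 36.9% of 542 bases. Gabarap, encoding a protein of autophagy and receptor traffic, was covered to 40.2% by clusters of 46 and 34 in 425 bases. Fscn1, encoding the actin-bundling protein fascin, had 4 clusters of 24, 43, 27 and 44 in 1091 bases. Atp2a2 had 3 clusters in an interval of 827 bases and 1 more, of height 26, in the 778 bases of another annotated 3' end. Selenof (Sep15 in the list) and Selenop (Sepp1 in the list), both of which encode selenoproteins, had 3 clusters of 48, 33 and 34 and a single cluster of 27.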
